A study of Oryza sativa with 12 samples.

Results

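The cultivar by heat interaction asks, for each transcript, whether heat changed its level by a different amount in one rice cultivar than in the other. It was taken over all 12 arrays as the heat effect in N22 (heat minus control) minus the heat effect in IR64, on log2 expression values. It covered 57194 of the 57381 probe sets on the array, all but 123 array control sets and 64 reporter sets. The members were set by array design and not by any measured value, and 29801 of them passed a low cut-off on brightness and were tested.

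The samples were panicles (Oryza sativa) from main tillers, tagged at booting, of IR64, which the labels call susceptible to heat, and of N22 (Nagina 22), which they call tolerant, in 4 groups of 3 arrays. IR64 heat and N22 heat stood for 8 days at 5 °C above ambient, nights included, in a heated facility, while IR64 control and N22 control grew in the open field beside it and were collected on the same day. Heat and growing site therefore changed together and cannot be told apart, in the interaction as in each heat effect. Sowing had been staggered so that both cultivars flowered at the same time. Several seed storage transcripts differed widely between the cultivars in both treatments, as given below. Whether the panicles of the cultivars matched in stage was not tested. The sources used here do not give the number of plants per sample or say that replicates were separate plants. The p-values therefore rest on how much these arrays differ within a group, and that spread may be technical.

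Plant cells answer heat through heat stress transcription factors (HSFs), which switch on chaperones that hold or refold damaged proteins. Small heat shock proteins hold unfolding proteins, HSP101 takes aggregates apart, and HSP90 (HSP81 in rice) and the endoplasmic reticulum chaperone BIP fold clients. The panicle at booting and flowering is the most heat-sensitive organ of rice, because pollen development and fertilisation fail there. A positive interaction can arise when N22 gained more, when IR64 lost more, or both, so the genes described at length are given by their level in all 4 groups. A gene given below by its interaction alone may have reached it either way. As a fold, the interaction is the heat fold change of N22 divided by that of IR64.

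The heat effect differed between the cultivars at a majority of the tested probe sets. limma called 16508 of 29801 probe sets (55.4%) at a Benjamini-Hochberg adjusted p under 0.05, of which 8744 (29.3%) were positive (the heat effect higher in N22) and 7764 (26.1%) negative. Calls of at least 2-fold numbered 5129 in the positive direction (17.2%) and 3179 in the negative (10.7%). The median interaction over all tested probe sets was -0.01, with quartiles at -0.48 and 0.63. That even split depended on the scaling of the arrays: under median centring of the arrays the median was -0.31 and the calls split into 6594 positive and 13813 negative (at least 2-fold, 3832 and 5366), and quantile normalization gave 7702 and 9807 (at least 2-fold, 4362 and 4279). Interactions close to 0 thus have no settled sign here, and the directions given below are of genes and lists that kept theirs under both scalings unless a sentence says otherwise.

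Large interactions were mostly positive on the deposited scale. A group counts as at background where none of its arrays exceeds 4.20, the highest value of the reporter sets, which match no rice gene. Of the called probe sets, 11803 had a signal above this level in all 4 groups, and only these can be given a size. Among them 1152 were at least 4-fold positive against 207 negative, 381 against 30 were at least 8-fold, and 153 against 4 were at least 16-fold. A further 860 gave a lower bound on the size, while 2480 lay at background throughout one cultivar, 1126 in all 4 groups, and 239 gave no size for other reasons, so that the calls of these last 3 kinds count a difference in values without a fold.

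**Figure D1:**
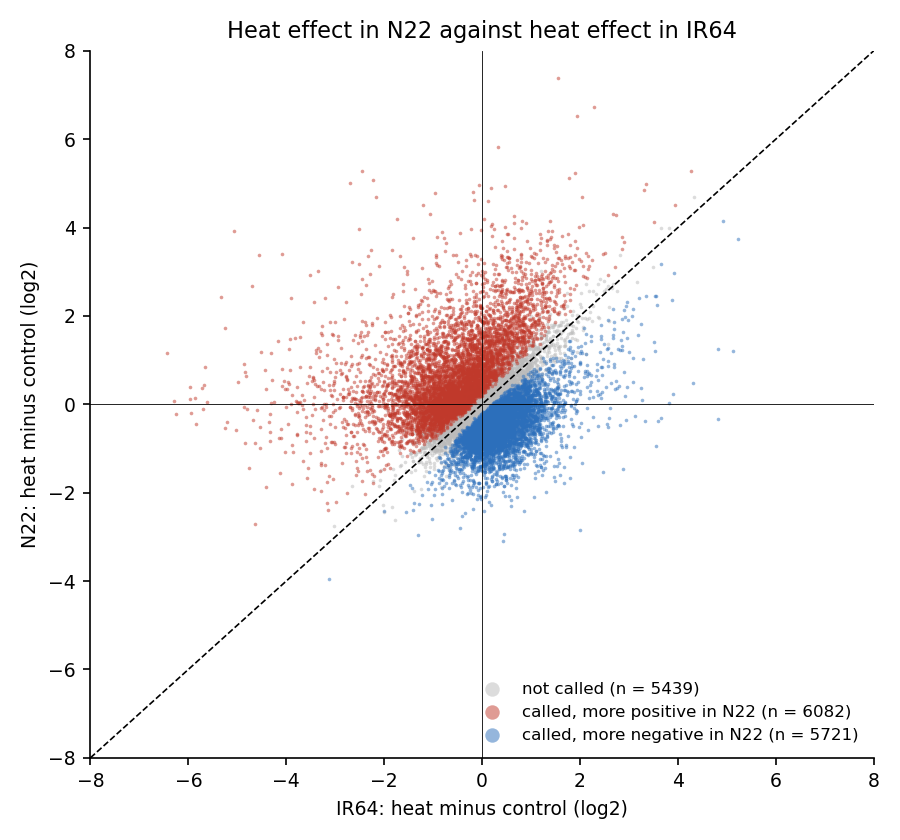
Heat effect in N22 (vertical axis, log2 heat minus control) against the heat effect in IR64 (horizontal axis) for the tested probe sets with a signal in all 4 groups; each point is 1 probe set and the dashed line marks equal effects. The 6082 called probe sets with a positive interaction lie above the line and reach farther from it than the 5721 with a negative one.

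In the called probe sets with a size, the mean heat effects of the cultivars often had opposite signs. No size was asked of either effect, so a cultivar that hardly changed is counted too. An example is 4CL3, with heat effects of -5.87 in IR64 and 0.14 in N22, where its level lay just above background. The positive interactions comprised 3233 with a higher mean under heat in N22 and a lower one in IR64 (53.2% of 6082), 1429 higher in both and 1418 lower in both. Of the negative interactions, 3713 were lower under heat in N22 and higher in IR64 (64.9% of 5721). The levels of the cultivars lay closer together in heat than in control for 7950 of the 11803 (67.4%) and farther apart for 3853. On the linear scale, 11020 of the 11803 (93.4%) kept their sign.

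The group that stood apart was more often a control group than a heated one. For each called probe set with a size, the group farthest from the mean of the other 3 was taken. N22 control was that group for 41.1% of them, IR64 control for 26.3%, IR64 heat for 21.6% and N22 heat for 11%. Among positive interactions of at least 4-fold, N22 control stood apart as the low group in 488 and IR64 control as the high group in 443, against 150 for a low IR64 heat and 71 for a high N22 heat. The interaction is symmetric in the 4 groups, so a called gene may differ through an unusual control level as well as through an unusual level in heat.

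**Figure D2:**
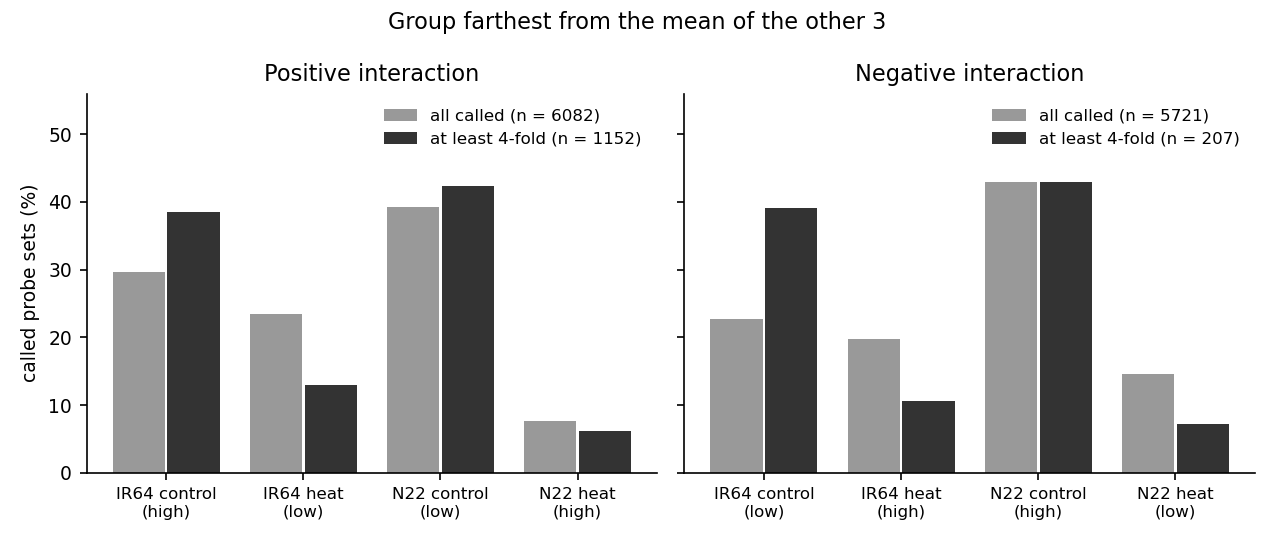
Share of called probe sets (vertical axis, percent) by the group that lies farthest from the mean of the other 3, for positive (left) and negative (right) interactions; grey bars are all called probe sets with a signal in all 4 groups and dark bars those of at least 4-fold. N22 control is the most frequent group in both directions and N22 heat the least frequent.

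Control probe sets, which took no part in the test, also carried a difference of heat effects. The 3′ minus 5′ signal of GAPDH, which grows as RNA shortens, was 4.79 ± 0.18 in IR64 control, 7.93 ± 0.16 in IR64 heat, 8.59 ± 0.14 in N22 control and 8.81 ± 0.17 in N22 heat (mean ± SD, n = 3, log2), so that the difference of its heat effects was -2.92. For ubiquitin that difference was -0.87 and for actin (3′ minus middle) -2.03. A second GAPDH set and EF1a gave 0.07 and 0.09, but their 3′ minus 5′ signal repeated the same value on most arrays (0.0187 and -0.0015). Such fixed values carry no information on RNA length. Of the ribosomal RNA sets, 5.8S, 25S and 28S gave 2.67, 2.48 and 1.77 and both 18S sets -0.10 and 0.02, against -0.86 for the hybridisation spikes and -1.33 for the labelling spikes. IR64 control stood apart in the GAPDH and ubiquitin measures, as it did in several of the wall and lignin genes below. Actin had IR64 heat apart (6.75, against 4.92 in IR64 control, 5.23 in N22 control and 5.03 in N22 heat). The part of these control measures in any interaction was not tested.

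Summed tissue markers differed between the cultivars and between single groups. Summed over 8 seed endosperm markers, the level ranged from 11.04 to 11.82 on the IR64 arrays and from 16.94 to 17.27 on the N22 arrays. The glutelins GLUA1 and GLUA2 and prolamin, the storage proteins of the filling grain, averaged at most 3.77 in IR64 control or heat and at least 14.07 in N22. The storage globulin GLB went the other way, at 10.36 and 9.83 in IR64 control and heat against 8.61 and 8.55 in N22, and the glutelin GluB4 was at background on all arrays. The difference of heat effects of the endosperm sum was 0.35. Of 11 floral organ markers, 9 were above background in IR64 control, 10 in IR64 heat, 8 in N22 control and 9 in N22 heat, and their sum was higher in IR64 (13.65 to 14.17) than in N22 (10.80 to 12.03). Of 11 tapetum and pollen wall markers, 8 were at background on all 12 arrays, among them TDR, PTC1 and RAFTIN1. MSP1, GAMYB and EAT1 were not. MSP1 averaged 8.13 and 8.19 in IR64 control and heat and 9.86 and 8.85 in N22 control and heat, and GAMYB 6.94, 6.52, 8.72 and 7.94. The sum of the 11 averaged 8.85, 8.80, 10.48 and 9.63 in the same order, a difference of heat effects of -0.80. The sum of 4 secondary wall markers (CESA4, CESA7, CESA9 and BC1) stood at 13.38 to 13.57 in IR64 control and between 7.46 and 7.76 in the other groups, a difference of heat effects of 5.82. The sum of 4 green tissue markers (CAB2R, RBCS, PETE and GLN2) came to 13.66 to 13.76 in N22 control and to 15.61 or more elsewhere, a difference of 1.87. The sum of 5 markers of dividing cells was lower under heat in both cultivars, from 10.40 to 8.80 in IR64 and from 10.81 to 9.58 in N22, a difference of 0.37. In such bulk samples fewer cells of a type and less RNA per cell cannot be told apart, and the part of tissue makeup in the interactions was not tested.

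**Figure D3:**
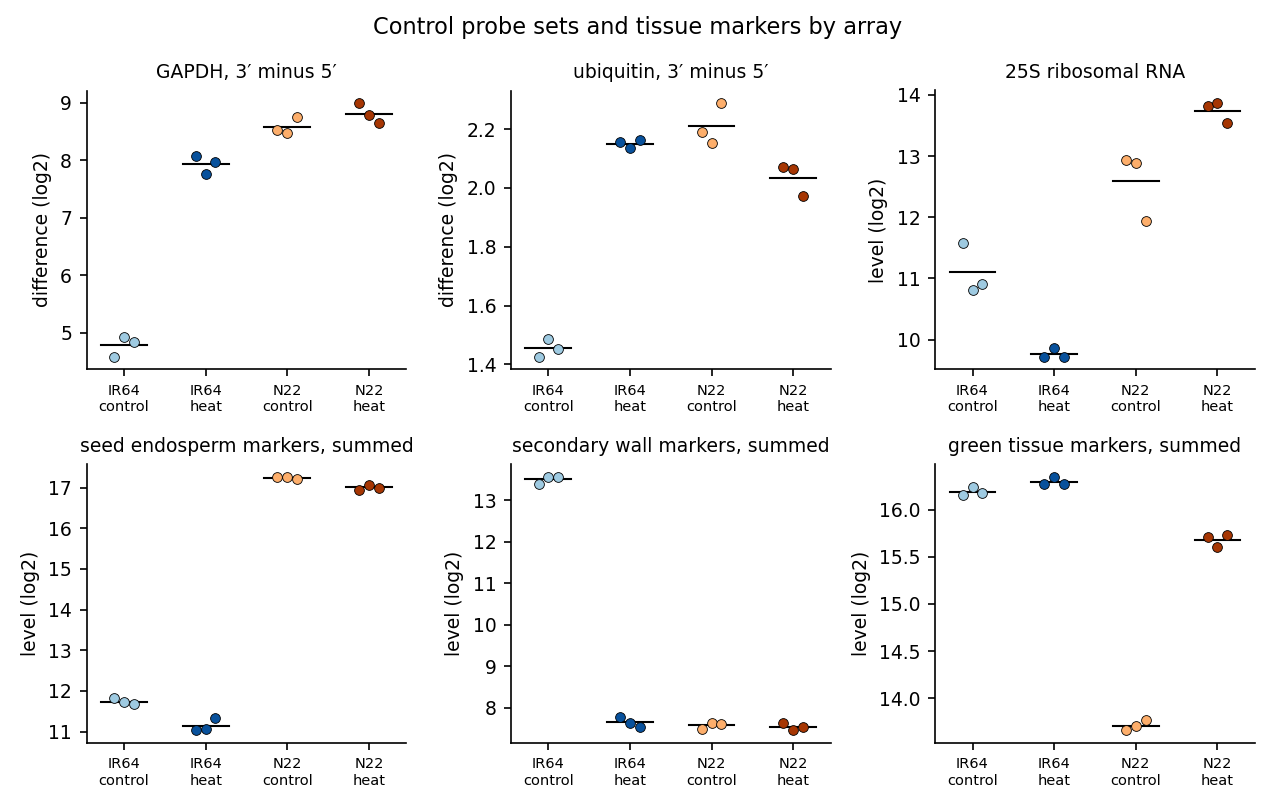
Control probe sets and summed tissue markers on each of the 12 arrays (points, log2; bars are means of 3 arrays). IR64 control stands apart in the 3′ minus 5′ difference of GAPDH and ubiquitin and in the secondary wall markers, N22 control in the green tissue markers, and the cultivars differ in the endosperm markers whatever the treatment.

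Of the lists described, small heat shock proteins stood highest by median interaction. Of 19 tested genes, 16 were called positive and 2 negative, where 35.5% and 30.2% of all 16069 tested genes did (65.7% called in either direction), and the list's median was 4.59 against 0.03 over all genes (both on the log2 scale, 1 probe set per gene). HSP17.4 (LOC4332360) read 9.10, 9.24 and 9.08 in IR64 control, 6.42, 6.24 and 6.66 in IR64 heat, 8.05, 8.70 and 8.32 in N22 control, and 13.32, 13.36 and 13.39 in N22 heat. Its N22 heat arrays lay above all others and its IR64 heat arrays below all others, an interaction of 7.70 ± 0.22 (SE of the fit, 3 arrays per group; limma adjusted p = 2.67e-09), or a 208-fold ratio of the heat folds. Every interaction given from here on with ± carries this SE.

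Other members of the family showed the same order or another. HSP18.1 (LOC4332361) averaged 8.35 and 8.52 in IR64 control and heat, 6.92 in N22 control and 11.81 in N22 heat, an interaction of 4.72 ± 0.11. For HSP17.7, HSP22.3, HSP17.9A, HSP24.1 and HSP18.6 (the last a shared probe set, one that can match several transcripts), the interaction was 5.33 ± 0.10, 3.33 ± 0.09, 3.59 ± 0.11, 5.53 ± 0.18 and 5.68 ± 0.23. In all 5 the mean was lower under heat in IR64 and higher in N22. The same opposition held for HSP17.9B (LOC4325695), HSP18.8 (shared) and HSP26.2 (shared), at 5.07 ± 0.08, 3.43 ± 0.09 and 1.33 ± 0.27. HSP17.9B nonetheless had its highest level in IR64 control (13.00 to 13.13) and its lowest in N22 control (5.88 to 5.96), and N22 heat (8.53 to 8.67) did not reach IR64 heat (10.67 to 10.70). In 8 of the 13 called members with a size, N22 heat was the group that stood apart, which was the least frequent case over all probe sets.

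Some members were limited by background on one side. HSP21.9 (LOC4350180) was at 2.29 on all 6 IR64 arrays and at 2.29, 4.16 and 2.29 in N22 control, and reached 13.98 to 14.03 on the 3 N22 heat arrays. No size is given, because IR64 showed no signal in either group, although the difference was called (limma adjusted p = 1.21e-07). HSP23.2 (LOC4335956) read 2.96, 3.13 and 2.37 in IR64 control, 5.58, 5.66 and 6.01 in IR64 heat, 6.66, 6.98 and 7.02 in N22 control and 13.34, 13.40 and 13.28 in N22 heat. Both cultivars were higher in heat, and with IR64 control at background the ratio of their heat folds has no measured size. HSP26.7, with IR64 near or at background in both groups (1 array of 6 above it), gave 13.14 in N22 heat against 9.06 in N22 control, and HSP16.0 an interaction of at least 47.3-fold. HSP17.8 was called with a signal on 2 of 3 N22 heat arrays alone, the highest at 4.37, and the call was lost when values under background were raised to it (0.10, limma adjusted p = 0.25). HSP16.6 was not called (1.10 ± 0.47, limma adjusted p = 0.0684), but was without N22 heat replicate 2 (1.60).

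A pair of members stood against the rest of the family. HSP16.9A (LOC4325697) read 7.25, 7.0 and 7.06 in IR64 control, 10.56, 10.62 and 10.66 in IR64 heat, 12.53, 12.59 and 12.60 in N22 control, and 13.95, 13.97 and 14.02 in N22 heat. The 4 groups did not overlap, and N22 was above IR64 in both conditions, but the step with heat was larger in IR64, an interaction of -2.10 ± 0.09. Its close relative HSP16.9B (LOC4325698) gave 4.59 ± 0.28, from 4.86 to 6.80 in IR64 and from 3.76 (1 of 3 arrays above background) to 10.28 in N22. For HSP18.0 (LOC4325342) 2 probe sets disagreed in sign. The gene-specific one averaged 9.07 and 6.61 in IR64 control and heat and 5.81 and 11.10 in N22 control and heat, an interaction of 7.74 ± 0.20. The shared one, which is brighter and stands for the gene in the list, averaged 8.58, 8.57, 10.14 and 9.0 in the same order, an interaction of -1.13 ± 0.07.

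The larger chaperones gave smaller values. Of 6 genes of HSP90, HSP101, HSP70 and BIP, 3 were called positive and 2 negative, with a median of 1.43. hsp101 (LOC4339343) read 6.56, 6.62 and 6.78 in IR64 control, 5.78, 5.66 and 5.82 in IR64 heat, 7.57, 7.52 and 7.39 in N22 control and 8.72, 8.80 and 8.64 in N22 heat, 2.13 ± 0.11 for the interaction. N22 arrays were higher than IR64 arrays throughout, and the distance grew in heat. BIP1 gave 2.65 ± 0.14, with IR64 heat (10.15 to 10.47) below all other groups. HSP81-1 gave 1.96 ± 0.06, and here N22 did not gain: its mean was 13.48 in control and 13.21 in heat, while IR64 went from 13.85 to 11.62. HSP81-2 and HSP81-3 (shared) gave -0.83 ± 0.07 and -0.32 ± 0.05, and BIP4, near background, was not called (0.89 ± 0.44, limma adjusted p = 0.118) except without N22 control replicate 2 (1.32). In the wider list of endoplasmic reticulum folding, 16 of 24 genes were called positive and 4 negative (median 0.67). Calreticulin CRO1 (shared), a calcium-binding lectin chaperone, went from 12.23 to 9.69 in IR64 and from 10.59 to 11.98 in N22 (3.93 ± 0.09). The disulfide isomerase PDIL2-3 (shared) went from 9.57 to 7.26 and from 10.65 to 11.56 (3.21 ± 0.19), while PDIL1-5 (shared) gave -2.07 ± 0.23.

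Heat stress transcription factors, which stand upstream of these chaperones, were split. Of 19 tested genes, 9 were called positive, 3 negative and 7 were not called, with a median of 0.44. The split became 8 and 7 under median centring. HSFB2C (LOC4347637) read 9.39, 9.40 and 9.40 in IR64 control, 6.54, 6.28 and 6.07 in IR64 heat, 7.21, 7.27 and 7.22 in N22 control and 9.12, 9.21 and 8.95 in N22 heat. IR64 heat was the lowest group and IR64 control the highest, an interaction of 4.97 ± 0.15. HSFA2D (shared), HSFB1, HSFA9 (shared) and HSFB2A gave 2.3 ± 0.16, 2.04 ± 0.09, 1.93 ± 0.17 and 1.32 ± 0.08. HSFA2D went from 11.27 to 9.62 in IR64 and from 7.36 to 8.01 in N22. In HSFB1 almost all of that lay in IR64, whose mean went from 10.24 to 8.42 while N22 went from 7.35 to 7.58. HSFA2C, HSFA4D, HSFB2B (shared) and HSFA1 were also called positive, at 2.03 ± 0.37, 1.06 ± 0.26, 1.02 ± 0.27 and 0.44 ± 0.15, the first 3 with at least 1 group at background. The call of HSFA1 was lost without any one of 6 of the 12 arrays (0.35 to 0.43) and under both scalings, and that of HSFB2B under quantile normalization (0.62).

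Called negative were HSFC1B, HSFA6B and HSFA2E, at -1.07 ± 0.11, -1.15 ± 0.22 (2 groups at background) and -0.40 ± 0.11. HSFC1B was higher under heat in both cultivars, by 3.06 in IR64 and 1.99 in N22. HSFA2A (shared), HSFA3, HSFA4B, HSFA5, HSFB4B (shared), HSFC1A and HSFC2A were not called. Leaving out IR64 control replicate 2 called HSFA2A (1.28), and leaving out N22 control replicate 3 called HSFC1A (-0.67). HSFA3, HSFA5, HSFC1A and HSFC2A passed as negative under median centring (-0.58, -0.45, -0.81 and -0.45). For HSFB4B the interaction was 0.02 with a 95% interval from -0.62 to 0.67, and its levels were higher under heat by 1.33 in IR64 and 1.35 in N22.

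**Figure D4:**
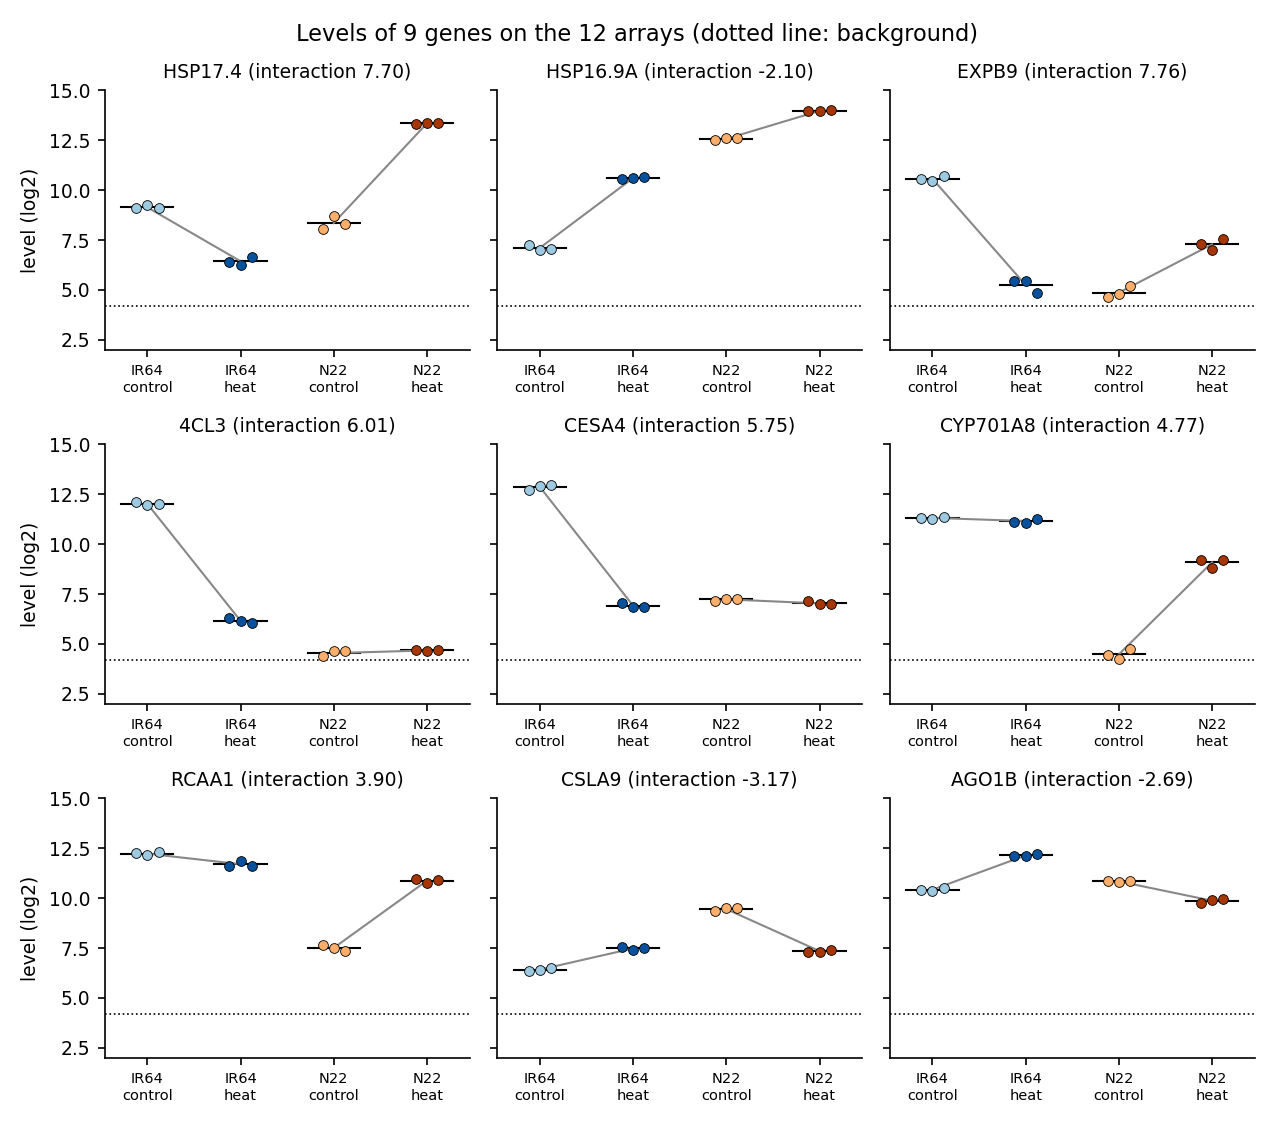
Log2 level (vertical axis) of 9 genes on the 12 arrays; points are arrays, short bars group means, grey lines join control and heat within a cultivar and the dotted line is background. HSP17.4 and EXPB9 move in opposite directions, 4CL3 and CESA4 are high in IR64 control alone, CYP701A8 and RCAA1 are low in N22 control, and CSLA9 and AGO1B move down in N22 and up in IR64.

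Genes of lignin and secondary wall synthesis stood among the largest positive interactions, and most of their difference lay in IR64. Phenylalanine ammonia-lyase (PAL) and 4-coumarate:CoA ligase (4CL) open the phenylpropanoid pathway that feeds lignin, and CESA4, CESA7 and CESA9 form the cellulose synthase complex of the secondary wall. 4CL3 (LOC4328485) read 11.97 to 12.11 in IR64 control, 6.29, 6.14 and 6.04 in IR64 heat, 4.37, 4.62 and 4.62 in N22 control and 4.71, 4.62 and 4.69 in N22 heat. IR64 control lay far above the other 9 arrays and the N22 groups overlapped, an interaction of 6.01 ± 0.12 (limma adjusted p = 3.93e-10). The N22 means, 4.54 in control and 4.68 in heat, lay just above background, so a fall in N22 could hardly have been seen. CESA4 (LOC4324625) read 12.71, 12.90 and 12.99 in IR64 control and between 6.84 and 7.28 on the other 9 arrays, an interaction of 5.75 ± 0.13. PAL06 gave 6.10 ± 0.30 and, on a second, shared probe set, 5.67 ± 0.39. BC1, a COBRA-like protein that sets culm strength, gave 6.49 ± 0.18 with 2 of 3 N22 control arrays above background.

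4CL5, CESA7 and CESA9 had the same layout with N22 at or near background. 4CL5 averaged 11.07 in IR64 control and at most 4.0 in the other groups, where 1 of 9 arrays exceeded background, so no fold is given beside its fitted 7.18 ± 0.22. CESA7 and CESA9 averaged 9.99 and 8.58 in IR64 control and at most 4.03 and 3.22 elsewhere. As lists, phenylpropanoid and lignin enzymes had 18 of 25 genes called positive and 2 negative (median 1.55), cellulose synthases, synthase-like genes and BC1 21 of 27 and 2 (median 1.08), and xylan synthesis and acetylation 12 of 17 and 2 (median 1.52). IR64 control was the group that stood apart, on the high side, in 11 of the 13 called phenylpropanoid genes with a size, in 7 of 13 xylan genes and in 4 of 17 cellulose synthase genes. In the cellulose list a low IR64 heat was more frequent, in 7 of the 17. HCT1 and laccase LAC10 of lignin synthesis gave 4.38 ± 0.11 and 4.71 ± 0.36, with IR64 means going from 11.55 to 7.52 and from 10.72 to 5.46, and the xylan acetyltransferase XOAT11 (shared) 4.69 ± 0.15. The 4 secondary wall markers given above are themselves members of the cellulose list. IR64 control stood apart in their sum and in the 3′ to 5′ measures of GAPDH and ubiquitin, though not in that of actin. Their part in these interactions was not tested.

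Cell expansion and sugar supply held other large positive interactions with several layouts. EXPB9 (LOC4349301), a beta-expansin that loosens walls, read 10.57, 10.47 and 10.69 in IR64 control, 5.43, 5.46 and 4.84 in IR64 heat, 4.63, 4.77 and 5.18 in N22 control and 7.28, 7.02 and 7.56 in N22 heat. Both IR64 control and N22 heat lay above the other groups, and the interaction of 7.76 ± 0.28, a 216-fold ratio of heat folds, was the largest of a named gene with a signal in all 4 groups. EXPB10 had IR64 heat and N22 control at background and gave at least 20.2-fold. SUS1 (LOC4333062), a sucrose synthase that opens sucrose for wall and starch synthesis, read 11.88, 11.89 and 11.98 in IR64 control, 5.58, 5.62 and 5.77 in IR64 heat, 10.12, 10.09 and 9.94 in N22 control and 9.82, 9.96 and 9.73 in N22 heat. Here IR64 heat was the group that stood apart, far below the rest, and the interaction was 6.04 ± 0.11. The cell wall invertase CIN1 gave 4.18 ± 0.25 (2 of 3 N22 control arrays above background) and the sucrose exporter SWEET11 (shared) 1.96 ± 0.06. Nitrate reductase NIA1, DAHPS2 (shared), which opens the shikimate pathway, and the glutathione transferase GST1 (shared) gave 5.61 ± 0.21, 6.96 ± 0.33 and 5.71 ± 0.15, each lower under heat in IR64 and higher in N22. In DAHPS2, 1 of 3 IR64 heat arrays exceeded background.

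Photosynthesis genes were almost uniformly more positive in N22, mainly through a low N22 control. Of 36 tested genes, 31 were called positive and 1 negative (median 1.65), and N22 control was the group that stood apart, on the low side, in 26 of the 30 called genes with a size. Rubisco activase RCAA1 (LOC4351224, shared) read 12.24, 12.16 and 12.30 in IR64 control, 11.62, 11.87 and 11.62 in IR64 heat, 7.64, 7.52 and 7.37 in N22 control and 10.95, 10.77 and 10.92 in N22 heat. All 3 N22 control arrays were below the other 9, and the interaction was 3.90 ± 0.13. CHLP and CHLH (shared) of chlorophyll synthesis and the light-harvesting protein LHCP gave 3.83 ± 0.13, at least 10.8-fold, and 3.53 ± 0.11. The green tissue markers given above, whose sum was also lowest in N22 control, moved with these genes, and all 4 of them belong to the photosynthesis list. What part tissue makeup had in them was not tested.

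Defence metabolism also leaned to positive interactions. Rice makes diterpenoid phytoalexins, antimicrobial compounds, from geranylgeranyl diphosphate through the cyclase CPS2 and cytochromes P450. The list of diterpenoid synthesis genes was chosen by symbol, and not all of them need serve phytoalexins. In that list 12 of 15 genes were called positive and 1 negative (median 2.69). N22 control was the low group that stood apart in 4 of the 5 called genes with a size. CYP701A8 (LOC4341343) read 11.33, 11.28 and 11.35 in IR64 control, 11.12, 11.08 and 11.28 in IR64 heat, 4.42, 4.25 and 4.76 in N22 control and 9.23, 8.82 and 9.22 in N22 heat. The IR64 groups were close together, whereas N22 control lay just above background and N22 heat far above it, an interaction of 4.77 ± 0.20. CPS2, CYP71Z7 and CYP99A2 gave 4.39 ± 0.21, 4.28 ± 0.17 and at least 16.3-fold. Among chitinases, PR and other defence proteins 17 of 24 were called positive and 1 negative (median 1.57). The chitinase chia4a (LOC4336265) read 13.26, 13.24 and 13.17 in IR64 control, 10.22, 10.33 and 10.27 in IR64 heat, 6.27, 6.27 and 6.26 in N22 control and 8.85, 8.77 and 9.11 in N22 heat. Its control groups were the extremes and its heated groups lay between them, an interaction of 5.59 ± 0.11. The chitinases CH16 and Cht4 and the PR10 protein PBZ1 gave 4.96 ± 0.16, 5.77 ± 0.60 and 3.90 ± 0.13.

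Several other lists leaned to positive interactions. Aquaporins, the water channels of the membrane, had 18 of 23 called positive and 1 negative (median 1.23). PIP1-1, PIP2-2 (shared) and PIP2-7 (shared) gave 3.09 ± 0.11, 3.01 ± 0.08 and 1.96 ± 0.14. PIP1-1 went from 10.35 to 8.78 in IR64 and from 5.74 to 7.26 in N22, and PIP2-2 differed mainly through IR64, from 12.63 to 10.14, while PIP2-7 was higher under heat in both cultivars, by more in N22 (10.44 to 13.29). Antioxidant enzymes had 11 of 16 and 3 (median 1.25), with ascorbate peroxidase APX1 at 2.59 ± 0.09 and catalase catA (shared) at 2.09 ± 0.10. APX1 went from 12.30 to 10.64 in IR64 and from 9.15 to 10.08 in N22, and in catA nearly all of the difference lay in N22 (11.09 to 13.04). Glutathione S-transferases and glutaredoxins had 16 of 24 and 4 (median 0.78), with GSTU6 at 4.05 ± 0.14, mostly through IR64 (10.47 to 7.44). Calcium-dependent kinases had 14 of 19 and 2 (median 0.66), jasmonate synthesis and JAZ repressors 16 of 29 and 3 (median 0.44), and MADS-box factors, which include those of floral organ identity and of flowering time, 14 of 26 and 5 (median 0.91). Under median centring the splits of these last 3 lists were 9 and 3, 12 and 7, and 14 and 9, with medians of 0.36, 0.13 and 0.60. JAZ8 and JAZ7, repressors of jasmonate responses, gave 3.05 ± 0.12 and 2.43 ± 0.11, CIPK14 (shared), a kinase that partners calcium sensors, 4.23 ± 0.16, and the floral organ factors MADS1 and MADS16 2.09 ± 0.16 and 1.97 ± 0.23. JAZ8 went from 10.35 to 8.33 in IR64 and from 5.89 to 6.92 in N22, JAZ7 from 12.53 to 11.60 and from 9.21 to 10.72, and CIPK14 from 7.99 to 7.23 and from 4.98 to 8.45. MADS1 was lower under heat in both cultivars, by more in IR64 (12.10 to 9.71), whereas in MADS16 most of the difference lay in N22 (6.11 to 7.69). Proteasome subunits (10 positive, 1 negative of 16) and mitochondrial respiration (16 and 4 of 27) leaned the same way as deposited, but median centring turned the former to 2 and 5 and evened the latter at 10 and 9.

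**Figure D5:**
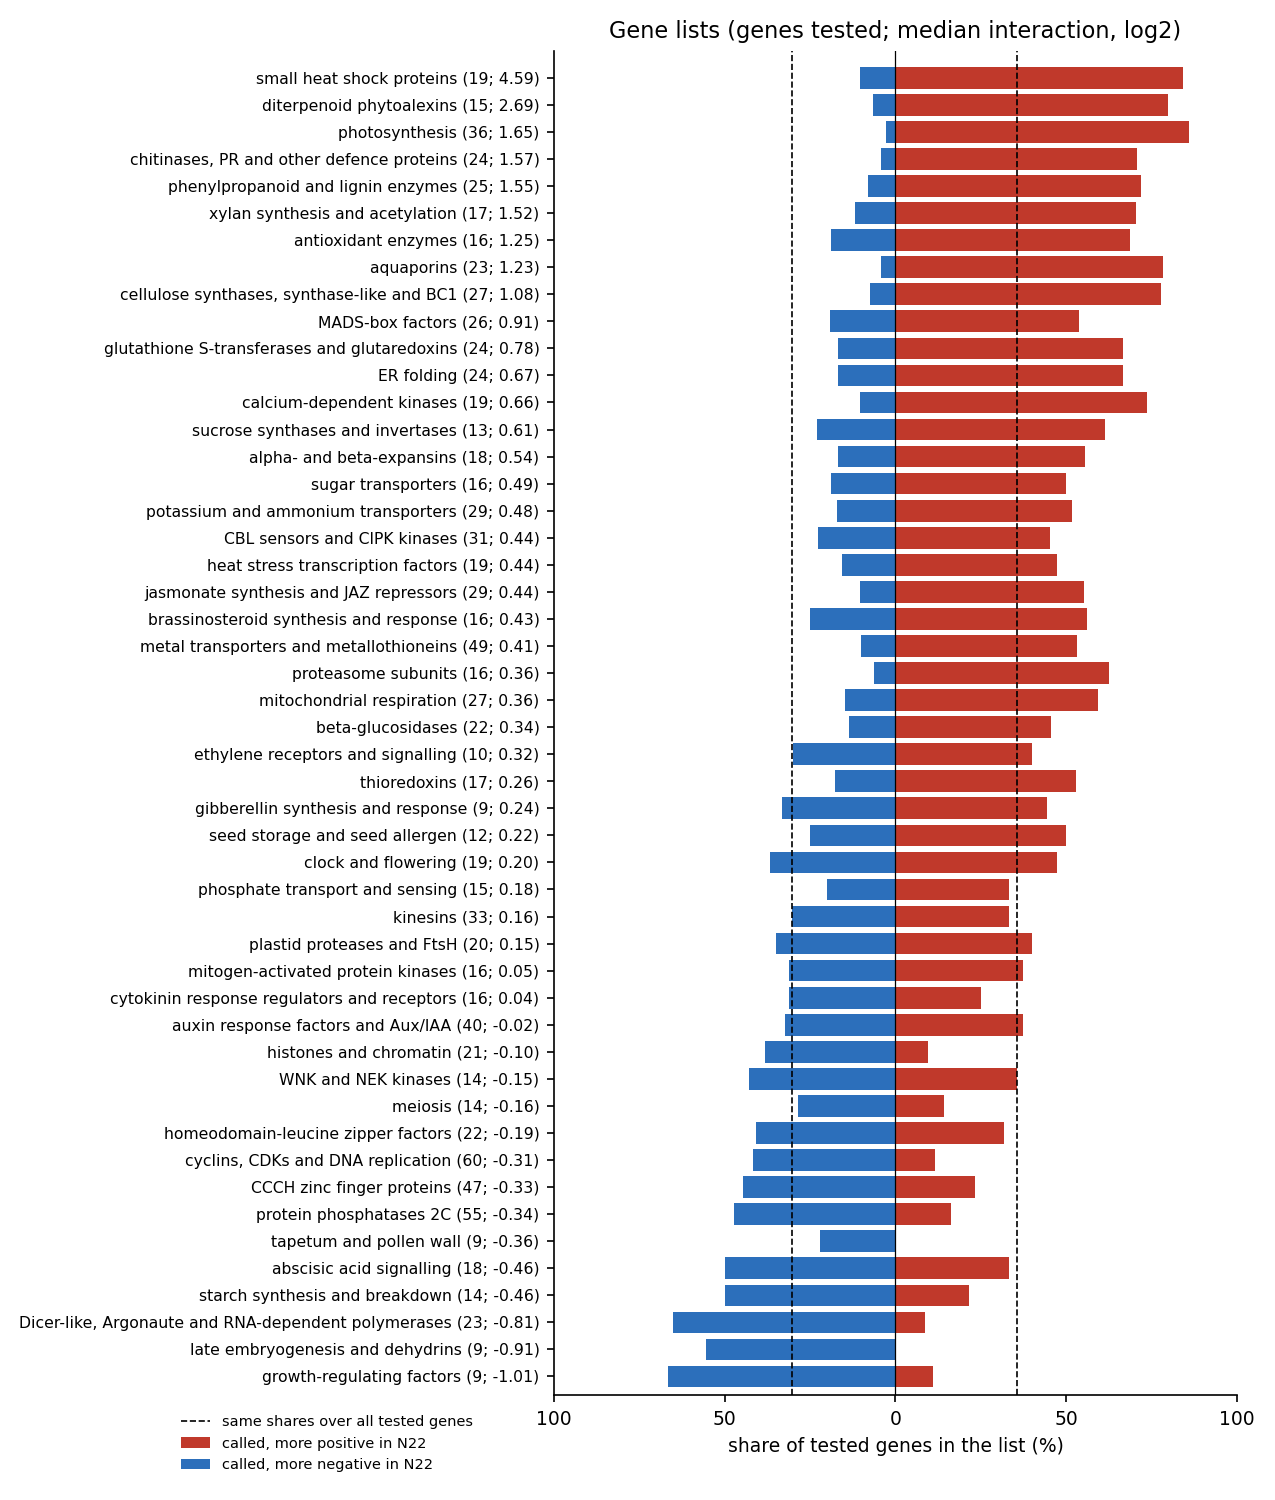
Share of tested genes in each list (horizontal axis, percent) called with a more positive (red, right) or more negative (blue, left) heat effect in N22; brackets give the genes tested and the median interaction (log2), and dashed lines give the same shares over all tested genes, 35.5% and 30.2%. Small heat shock proteins and photosynthesis lean farthest to the right, and growth-regulating factors and Dicer-like and Argonaute genes farthest to the left.

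Negative interactions were smaller, and regulators of RNA, chromatin and growth stood among them. Dicer-like, Argonaute and RNA-dependent polymerase genes, which make and use small RNAs, had 15 of 23 genes called negative and 2 positive (median -0.81). AGO1B (LOC9270411, shared) read 10.43, 10.35 and 10.50 in IR64 control, 12.11, 12.12 and 12.20 in IR64 heat, 10.87, 10.81 and 10.86 in N22 control and 9.75, 9.90 and 9.97 in N22 heat. IR64 heat was the highest group and N22 heat the lowest, an interaction of -2.69 ± 0.09. AGO1A and SGS3, a partner of RNA-dependent polymerase, gave -1.86 ± 0.08 and -1.65 ± 0.09, AGO14 at least 6.11-fold in the negative direction with IR64 control at background, and AGO1D (shared) went the other way at 1.54 ± 0.20. Growth-regulating factors, transcription factors of cell proliferation, had 6 of 9 called negative and 1 positive (median -1.01), with GRF6 at -1.84 ± 0.10 from 5.69 to 7.60 in IR64 and from 7.42 to 7.5 in N22.

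The cell cycle and chromatin lists leaned the same way, but most of the markers of dividing cells did not: 4 of 5 were called positive and 1 negative. In the list of cyclins, CDKs and DNA replication 25 of 60 were called negative and 7 positive (median -0.31; 42 and 5 under median centring), yet the mitotic cyclins CYCB2-2 and CYCB1-1 were positive, at 2.52 ± 0.14 and 1.83 ± 0.26 (the latter with 2 of 3 IR64 heat arrays above background). CYCB2-2 was lower under heat in both cultivars, from 9.01 to 4.61 in IR64 and from 9.36 to 7.48 in N22. Histones and chromatin genes had 8 of 21 called negative and 2 positive (median -0.10). These shares were 38.1% and 9.52%, against 30.2% and 35.5% over all tested genes. Fewer of the list were called in either direction (47.6%, against 65.7%). The Polycomb members fie and MSI1 gave -1.14 ± 0.11, through N22 (11.08 to 9.98), and -1.13 ± 0.07, and SSRP1-B, a histone chaperone subunit, gave -2.33 ± 0.08. Protein phosphatases 2C, some of which brake abscisic acid signalling, had 26 of 55 called negative and 9 positive (median -0.34). OsPP2C21 (shared) gave -2.64 ± 0.11 and BIPP2C1 2.66 ± 0.07. CCCH zinc finger proteins had 21 of 47 and 11 (median -0.33).

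Lists of late embryogenesis, starch and abscisic acid, the hormone of seed maturation and drought, also leaned to negative interactions, but seed storage genes did not. The seed storage and seed allergen list had 6 of 12 called positive and 3 negative (median 0.22), which median centring turned to 3 and 5 (median -0.09), and 3 of its genes had a signal in all 4 groups. Late embryogenesis and dehydrin genes had 5 of 9 called negative and 0 positive by limma (median -0.91), and the same numbers passed at an unadjusted p under 0.05. RAB21 (LOC4350454, shared), a dehydrin, read 4.16, 4.50 and 4.78 in IR64 control, 5.94, 5.73 and 6.27 in IR64 heat, 9.18, 9.18 and 9.37 in N22 control and 7.47, 7.63 and 7.45 in N22 heat. N22 was above IR64 in both conditions, the groups lay closer in heat, and 2 of 3 IR64 control arrays exceeded background, an interaction of -3.23 ± 0.23. LEA19 (shared) had IR64 control at background and gave at least 5.50-fold in the negative direction, while RAB16B and EM had IR64 at background in both groups, so that only N22 carried a signal. Starch synthesis and breakdown had 7 of 14 negative and 3 positive (median -0.46), with the disproportionating enzyme DPE1 at -2.88 ± 0.19, FLO6 at -1.59 ± 0.16 and SSII-1 (shared) at -1.75 ± 0.12. In abscisic acid signalling 9 of 18 were negative and 6 positive (median -0.46). Its negative share was 50%, against 30.2% over all tested genes, while its positive share of 33.3% was near theirs of 35.5%. The kinase SAPK9 (shared) and the bZIP factor ABF2 gave -2.16 ± 0.12 and -1.34 ± 0.08, both through IR64 heat, where their means were 10.99 and 10.51 against 9.48 or less in the other groups.

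The largest negative interactions of single named genes included both layouts. CSLA9 (LOC4341571), a mannan synthase-like glycosyltransferase, read 6.35, 6.41 and 6.50 in IR64 control, 7.54, 7.38 and 7.53 in IR64 heat, 9.35, 9.49 and 9.52 in N22 control and 7.33, 7.31 and 7.40 in N22 heat. The cultivars lay far apart in control and overlapped in heat, an interaction of -3.17 ± 0.10. The arginine methyltransferase PRMT5, the anthranilate synthase subunit ASA1 and the metal transporter Nramp1 gave -2.76 ± 0.15, -2.38 ± 0.17 and -2.34 ± 0.13, each with N22 control as the highest group. In contrast, hox14 (LOC4343726), a homeodomain-leucine zipper gene, was seen mainly in IR64 heat: it read 3.10, 2.29 and 3.10 in IR64 control, 7.33, 6.99 and 7.45 in IR64 heat, 3.78, 4.76 and 4.46 in N22 control and 3.72, 3.72 and 3.74 in N22 heat. Only 2 arrays outside IR64 heat exceeded background, and the interaction was at least 9.09-fold in the negative direction. SWEET14, a sucrose exporter, gave at least 6.65-fold on its gene-specific probe set and -3.66 ± 0.45 on the shared one (1 of 3 IR64 control arrays above background). On the gene-specific probe set its N22 means were 8.80 in control and 9.07 in heat. IR64 was there at background in control and at 7.21 in heat.

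Some genes crossed, higher under heat in one cultivar and lower in the other by at least 2-fold in each. Of 2276 tested named genes, 54 were up in N22 and down in IR64 and 5 the other way round. Only called probe sets with a signal in all 4 groups were counted. The first kind was led by HSP18.0 (on its gene-specific probe set), HSP17.4, HSP18.6, chia4a, CH16, EXPB9, NIA1 and HSP17.9B. The second comprised CSLA9, RAB21, OsPP2C21, SSRP1-B and the bZIP factor TGAL7 (-2.28 ± 0.11). TGAL7 averaged 4.60 and 5.79 in IR64 control and heat and 7.03 and 5.93 in N22 control and heat, so that the cultivars were nearly level in heat.

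Few named genes were counted with a signal in all groups and a strong heat effect in the same direction in both cultivars. In 7 of 2276 tested named genes, all groups had a signal and heat gave at least 4-fold in the same direction in both cultivars. Genes with a group at background, such as HSP23.2, could not be counted. Of these, 6 were higher and 1 lower under heat. For the interaction 6 of the 7 were called, where 65.7% of all tested genes were. The transcription factor MYB2 (LOC4332651) was the exception. It read 6.87, 7.01 and 6.99 in IR64 control, 9.23, 8.96 and 9.27 in IR64 heat, 5.04, 5.04 and 5.37 in N22 control and 7.39, 7.19 and 7.12 in N22 heat, and IR64 was above N22 in both conditions by about the same distance. Its interaction was -0.12 with a 95% interval from -0.49 to 0.25, so that these arrays allow a difference of heat effects up to that size, and median centring called it (-0.42). The glutamate synthase gene GLT2 gave 0.56 ± 0.20 (limma adjusted p = 0.0361; 2 of 3 N22 control arrays above background), a call that was lost without any one of 8 of the 12 arrays (0.40 to 0.57) and under both scalings (0.26 and 0.34). The strigolactone receptor HTD2 gave 0.72 ± 0.09, the protease inhibitor RBBI3.3 (shared) -0.72 ± 0.07 and the tubulin TUB6, which was lower in heat in both, 0.75 ± 0.10.

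Several lists of hormone and signalling regulators had shares near those over all genes, with medians whose sign or size depended on scaling. Auxin response factors and Aux/IAA repressors had 15 positive and 13 negative of 40 (median -0.02, and -0.33 under median centring), mitogen-activated protein kinases 6 and 5 of 16 (median 0.05, and -0.25), kinesins 11 and 10 of 33 (median 0.16, and -0.15) and homeodomain-leucine zipper factors 7 and 9 of 22 (median -0.19, and -0.49). Within such lists single members differed widely: IAA1 gave 2.28 ± 0.14 and OsETTIN2 -1.84 ± 0.10. The clock and flowering list held 9 positive and 7 negative of 19 (median 0.20, and -0.11 under median centring), and the clock gene PCL1 gave -1.22 ± 0.06.

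The largest interactions with a size or a bound were of genes for which the gene table gives no name. These are also the larger pool, as 2276 of the 16069 tested genes had an informative name. LOC4324248 averaged 9.40 and 4.34 in IR64 control and heat and 3.88 and 7.81 in N22 control and heat, an interaction of 8.99 ± 0.43 with 2 of 3 IR64 heat and 1 of 3 N22 control arrays above background. LOC4343084 averaged 2.48 and 9.32 in IR64 and 9.75 and 9.20 in N22, at least 50.7-fold in the negative direction, and was thus at background in IR64 control and bright in the other 3 groups.

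Where a gene had several probe sets they mostly pointed one way. Of 992 genes with at least 2 called probe sets, 793 (79.9%) had all of them in the same direction, and of 622 genes with at least 2 called probe sets with a signal in all 4 groups, 510 (82.0%) did. Each called gene named here had a limma adjusted p no higher than the largest among them, 0.0361, that of GLT2.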

How the data were processed

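RNA of the 12 panicle samples was read on an Affymetrix rice genome array. The authors deposited 1 table of log2 values, made with GCRMA per the submitters' processing notes. No source used here gives the version or settings. GCRMA pulls dim probe sets to a common floor, so low levels compress and folds near background are understated. Between-array scaling had been done before deposit.

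Of 57381 probe sets, 57194 entered and 29801 exceeded the table's median, 2.35, on at least 3 arrays. limma 3.58.1 (R 4.3.3) fitted 4 group means with 8 residual degrees of freedom. The interaction was tested two-sided with Benjamini-Hochberg adjustment and called under 0.05. On simulated data the fit recovered 61% of 100 probe sets changed by 1 and 97% of 100 changed by 2 on the log2 scale, among 29801. No other probe set was changed and the noise had no floor. With so few changes the adjusted threshold is stricter than in the real data, so these shares are not the sensitivity there. The number of arrays limits the precision.

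The array annotation gave 1 gene for 22436 probe sets, several for 95 and none for 34850. All 17905 genes had an entry in the RefSeq gene table (ASM3414082v1), which gave current symbols. In lists the brightest probe set stood for a gene. Shared probe sets can match several transcripts, so their gene is uncertain.

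Members, lists and rules were chosen with earlier results of these data known. Genes were named as the 14 largest interactions in each direction, up to 5 called members of each list, all tested members of 3 heat shock lists, the 8 clearest opposite effects in each direction, 5 strong but like effects, and unnamed genes by size. Not all that this rule names are printed. A fold against a group at background is a lower bound with background put in its place. Alternatives were other filters, scalings and variance models, a replicate block and leaving out each array.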

Additional observations from a re-analysis of the deposited data

Results flagged for a closer look

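The heat effect differed between the cultivars, by the limma test of the difference itself, at 16508 probe sets. The values below are interactions on the log2 scale, N22 minus IR64, of the called genes described above. Where a group lay at background they are fitted values and no sizes.

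Among small heat shock proteins the interaction was 7.74 for HSP18.0 on its gene-specific probe set and -1.13 on the shared one. It was 7.70 for HSP17.4, 5.68 for HSP18.6, 5.53 for HSP24.1, 5.33 for HSP17.7, 5.07 for HSP17.9B, 4.72 for HSP18.1, 4.59 for HSP16.9B, 3.59 for HSP17.9A, 3.43 for HSP18.8, 3.33 for HSP22.3, 1.33 for HSP26.2 and -2.10 for HSP16.9A. With background in at least 1 group it was 11.09 for HSP21.9, 5.85 for HSP16.0, 4.63 for HSP26.7, 3.53 for HSP23.2 and 1.66 for HSP17.8. Other chaperones and folding enzymes gave 2.65 (BIP1), 2.13 (hsp101), 1.96 (HSP81-1), -0.83 (HSP81-2), -0.32 (HSP81-3), 3.93 (CRO1), 3.21 (PDIL2-3) and -2.07 (PDIL1-5). Heat stress transcription factors gave 4.97 (HSFB2C), 2.3 (HSFA2D), 2.04 (HSFB1), 2.03 (HSFA2C), 1.93 (HSFA9), 1.32 (HSFB2A), 1.06 (HSFA4D), 1.02 (HSFB2B), 0.44 (HSFA1), -0.40 (HSFA2E), -1.07 (HSFC1B) and -1.15 (HSFA6B).

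Wall, lignin and sugar genes differed by 7.88 (EXPB10), 7.76 (EXPB9), 7.18 (4CL5), 6.49 (BC1), 6.10 and 5.67 (both probe sets of PAL06), 6.04 (SUS1), 6.01 (4CL3), 5.98 (CESA7), 5.75 (CESA4), 5.38 (CESA9), 4.71 (LAC10), 4.69 (XOAT11), 4.38 (HCT1), 4.18 (CIN1) and 1.96 (SWEET11). Defence and phytoalexin genes differed by 5.77 (Cht4), 5.59 (chia4a), 5.43 (CYP99A2), 4.96 (CH16), 4.77 (CYP701A8), 4.39 (CPS2), 4.28 (CYP71Z7) and 3.90 (PBZ1). Photosynthesis genes differed by 3.98 (CHLH), 3.90 (RCAA1), 3.83 (CHLP) and 3.53 (LHCP). Redox, nitrogen, water and metabolic genes differed by 6.96 (DAHPS2), 5.71 (GST1), 5.61 (NIA1), 4.05 (GSTU6), 3.09 (PIP1-1), 3.01 (PIP2-2), 2.59 (APX1), 2.09 (catA), 1.96 (PIP2-7), 0.75 (TUB6), 0.72 (HTD2), 0.56 (GLT2) and -0.72 (RBBI3.3). Signalling and floral genes differed by 4.23 (CIPK14), 3.05 (JAZ8), 2.66 (BIPP2C1), 2.43 (JAZ7), 2.28 (IAA1), 2.09 (MADS1) and 1.97 (MADS16), and the cyclins by 2.52 (CYCB2-2) and 1.83 (CYCB1-1).

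In the negative direction hox14 gave -5.03 and SWEET14 gave -3.93 and -3.66. RNA and chromatin genes gave -3.63 (AGO14), -2.76 (PRMT5), -2.69 (AGO1B), -2.33 (SSRP1-B), -1.86 (AGO1A), -1.65 (SGS3), -1.14 (fie) and -1.13 (MSI1), while AGO1D gave 1.54. Seed, starch and abscisic acid genes gave -3.23 (RAB21), -2.89 (LEA19), -2.88 (DPE1), -2.16 (SAPK9), -1.75 (SSII-1), -1.68 (RAB16B), -1.59 (FLO6), -1.34 (ABF2) and -0.91 (EM). The protein phosphatase OsPP2C21 gave -2.64. Others were -3.17 (CSLA9), -2.38 (ASA1), -2.34 (Nramp1), -2.28 (TGAL7), -1.84 (GRF6), -1.84 (OsETTIN2) and -1.22 (PCL1). The unnamed genes gave 8.99 (LOC4324248) and -7.39 (LOC4343084).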

How the results depend on the processing

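Scaling moved the counts most. Median centring of the arrays gave 13813 negative calls in place of 7764 and 5366 of at least 2-fold in place of 3179. Asking for at least 2-fold left 8308 of the 16508 called probe sets. Leaving out 1 array gave 15661 to 16282 calls, and no other filter, scaling or variance model moved the number of calls by over 1.5 times. Replicate numbers recur across groups, and deviations of same-numbered arrays correlated at -0.05 to 0.10. Correlations this low cannot exclude that the numbers pair the samples. Replicate 3 was the lowest array of every group in the hybridisation spikes, the 28S set and 1 of the 18S sets. The other control measures did not have it lowest in every group. Whether the numbers pair the samples is therefore not known. With a replicate block 16278 probe sets were called, and among the genes named only the call of GLT2 changed. Over 130 interactions of named genes, 1542 of 1560 values without 1 array and 887 of 904 under other alternatives kept direction and side of the threshold, and none of either reversed. The exceptions concerned HSP16.6, HSP17.8, BIP4, MYB2, GLT2 and 7 heat stress transcription factors (HSFA1, HSFA2A, HSFA3, HSFA5, HSFB2B, HSFC1A and HSFC2A). Of 54 list medians, 645 of 648 values without 1 array and 356 of 427 under other alternatives moved by less than the spread between replicates. The small heat shock proteins' median was 4.15 without IR64 heat replicate 2, and that of the larger chaperones 1.28 and 1.65 without N22 control replicates 1 and 2. The cause of these changes was not tested. Signal over background limits the sizes: 2480 calls lay at background throughout one cultivar and 1126 in all groups.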
